A study of Ramazzottius varieornatus with 48 samples.

Results

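The transcripts described here are those of the tardigrade Ramazzottius varieornatus whose level was higher 36, 48 and 72 h after UVC exposure than in non-exposed animals, and was not higher at 12 or 18 h. They are 150 of the 14532 transcripts in the deposited table. They were chosen on the values themselves. For each transcript, D was the group mean of log2(TPM + 1) minus the mean of the non-exposed libraries of the same time course, where TPM is a transcript level scaled to transcript length and to the library. Of 13920 genes, 13369 had 1 transcript, and 8369 of these averaged 10 TPM or more across the 48 libraries. Of those, 4826 had D under 0.5 at 12 and 18 h of the Long time course and at 12 h of the Short one. In 226 of them the lowest D at 36, 48 and 72 h was above 0.5, and the 150 with the highest such minimum are the members. Another 7 transcripts had been set aside by name, of which 1 would have met the other conditions. The 3 last members were g1122 (minimum D 0.629), g61 (0.628) and g13462 (0.627), and the next transcripts, g8831 (0.624), g4373 (0.619) and g9878 (0.618), were left out, so the set has no natural edge.

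All animals were of the YOKOZUNA-1 strain, a tardigrade line kept on the alga Chlorella vulgaris, and each library was made from 30 whole animals. There were 16 groups with 3 libraries each. The Short time course held non-exposed animals and animals taken every hour from 1 to 6 h and again at 9 and 12 h after exposure to UVC, the germicidal band of ultraviolet light, and the Long time course held non-exposed animals and animals taken every 6 h from 12 to 24 h, and at 36, 48 and 72 h. The methods state that animals of the Long course were given algae at 12 h, that non-exposed animals of both courses were taken at 0 h only, and that the libraries sequenced were selected on RNA integrity. UVC exposure, feeding and time since collection therefore cannot be told apart at 36 to 72 h. The samples are whole bodies, so more cells of a type and more RNA per cell cannot be told apart either.

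The rule takes the Long non-exposed libraries as its base, and the members were low there. Of the 150, 140 had a lower mean in the Long than in the Short non-exposed libraries, with a median difference of -0.60 on the log2 scale, whereas the median over the 8369 transcripts the rule could choose from was 0.12. The Long non-exposed libraries also listed more transcripts at exactly 0. Of the 7238 transcripts that averaged 20 TPM or more, 163 to 255 were listed at 0 in these libraries, against 8 to 63 in the 9 libraries of 36, 48 and 72 h and 18 to 145 in the Short non-exposed ones. Values against both non-exposed groups are therefore given. How much of the membership rests on the low base was not tested beyond these values.

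Tardigrades are microscopic animals that survive desiccation and high doses of ultraviolet light. UVC damages DNA directly and also raises reactive oxygen species, which glutathione and related enzymes remove. Their gut is a simple tube lined by secretory and absorptive cells, which release proteases, amylases and lipases onto the algae they eat. Secretory-abundant heat soluble (SAHS) proteins are a tardigrade family with the fold of fatty acid binding proteins. Protein names below are the best matches in Swiss-Prot given by the study, and apart from the heat soluble proteins the names come from other species. They were available for 51 members. A further 28 members were in the same tables without a match, and 71 were not listed there. Those tables mostly hold transcripts that the study found to be higher after exposure in these libraries, so the direction of a named group is not independent evidence.

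As a set, the members went from 3.26 to 3.77% of the TPM of a Long non-exposed library to 5.97 to 8.48% in the 9 libraries of 36, 48 and 72 h. Their summed TPM was 34850 ± 2584 (SD, n = 3) in Long non-exposed animals. It was 34694 ± 3783 at 12 h, 35798 ± 879 at 18 h and 34602 ± 1823 at 24 h. It was 66610 ± 12034 at 36 h, 71166 ± 8894 at 48 h and 72064 ± 11772 at 72 h. The step therefore lay between 24 and 36 h, and the 3 late groups overlapped each other. Without the 5 most abundant members the sums were 25326 in non-exposed animals and 47853, 51478 and 53987 at the late times. Since the rule required the difference of each member, this describes the sizes only.

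**Figure D1:**
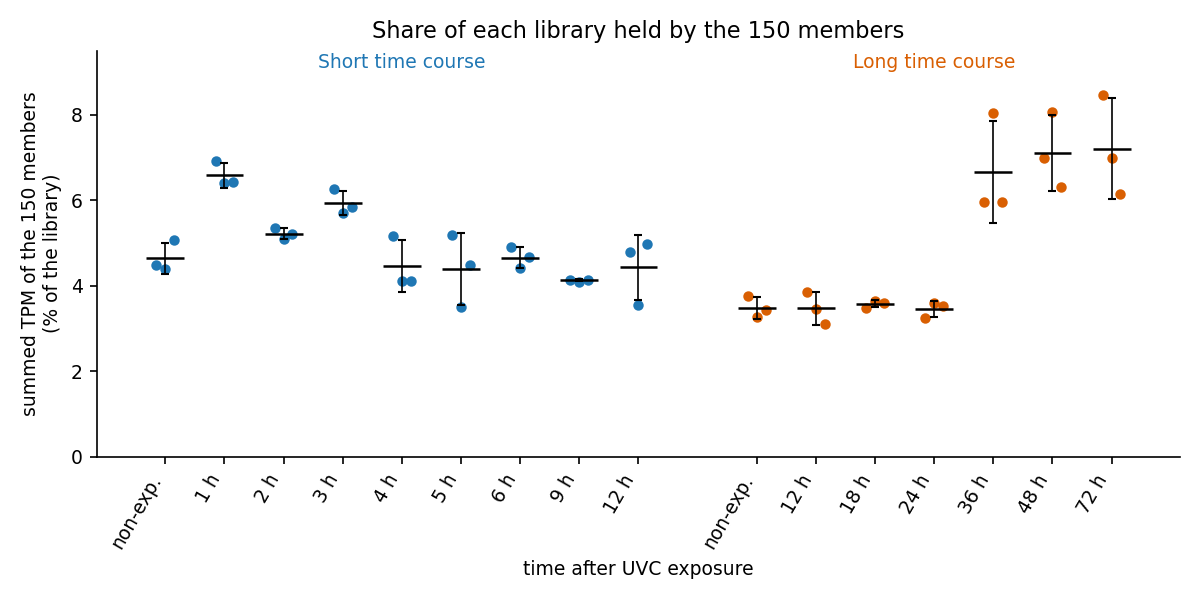
Summed TPM of the 150 members as a percentage of each library (points), with the group mean and SD (n = 3), for the Short (blue) and Long (orange) time courses. The Long groups step from 3.48% in non-exposed animals to 6.66% at 36 h, and the Short libraries at 1 h (6.58%) lie above the other Short groups.

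The rule fixed the direction of the late differences, so they are given as a description. The median D of the members was 0.99 at 36 h, 1.11 at 48 h and 1.15 at 72 h, beside a median over all 12088 transcripts tested of -0.01, -0.04 and -0.14. The minimum D ranged from 0.627 to 3.55, with a median of 0.855. It was over 1 in 49 members and over 2 in 5. In the limma fit of the Long course, where a call meant a change of more than 1 in log2 at an adjusted p below 0.05, 13 members were called higher at 36 h, where 0.811% of all transcripts tested were. At 48 h 27 members were called (background 1.4%), and at 72 h 34 (background 2.12%). These counts moved with single libraries, and so did the calls over all transcripts. The 13 at 36 h became 8 and 4 without Long non-exposed replicates 1 and 2 (background 0.794 and 0.356%). They became 1, 0 and 6 without Long 36 h replicates 1, 2 and 3 (background 0.223, 0.174 and 0.356%). The 27 at 48 h became 14 without Long non-exposed replicate 2 (background 0.918%). Without Long 48 h replicates 1 and 2 they became 14 and 9 (background 0.563 and 0.538%). The 34 at 72 h became 11 and 20 without Long 72 h replicates 1 and 2 (background 0.711 and 0.976%). A call at all 3 times was made for 7 members, at 2 times for 18, at 1 time for 17 and at none for 108. The 9 late libraries all lay above the 3 Long non-exposed ones in 67 members (background 4.96%). In the other members at least 1 late library lay within or below the range of the base.

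The 7 transcripts called at all 3 times were g3301, matched to alpha-amylase, g12062, matched to a transmembrane serine protease, g5612, matched to ribosomal protein L22, g5447, matched to the vesicle tethering protein VPS51, g671 and g5362, which have no match, and g6138, which the study's tables do not list. The precision of the calls followed the level. Of the 30 members with a mean TPM under 20, 2 were called at any late time, and their median standard error at 72 h was 1.02 on the log2 scale. Of the 63 members between 100 and 1000 TPM, 30 were called, with a median standard error of 0.311. The members were more abundant than the transcripts they were drawn from, with a median of mean TPM of 100.6 against 44.7, and 12 of them were over 1000 TPM.

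Set against the Short non-exposed libraries, fewer members stood apart. The mean at each of the 3 late times was above the Short non-exposed mean in 109 of the 150 members, by more than 0.5 in 54 and by more than 1 in 11, and it was below at each time in 12. In a fit of all 16 groups, chosen after the values were seen, 6 members were called higher at 36 h against the Short non-exposed libraries (background 0.885%), 7 at 48 h (background 0.364%) and 11 at 72 h (background 0.513%). Of the 34 members called at 72 h against the Long base, 10 were also called against the Short base, among them amylase, kallikrein-8, ribosomal protein L5, aquaporin-5 and a neuroligin match. All 9 late libraries lay above all 6 non-exposed libraries in 25 members (background 1.29%).

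**Figure D2:**
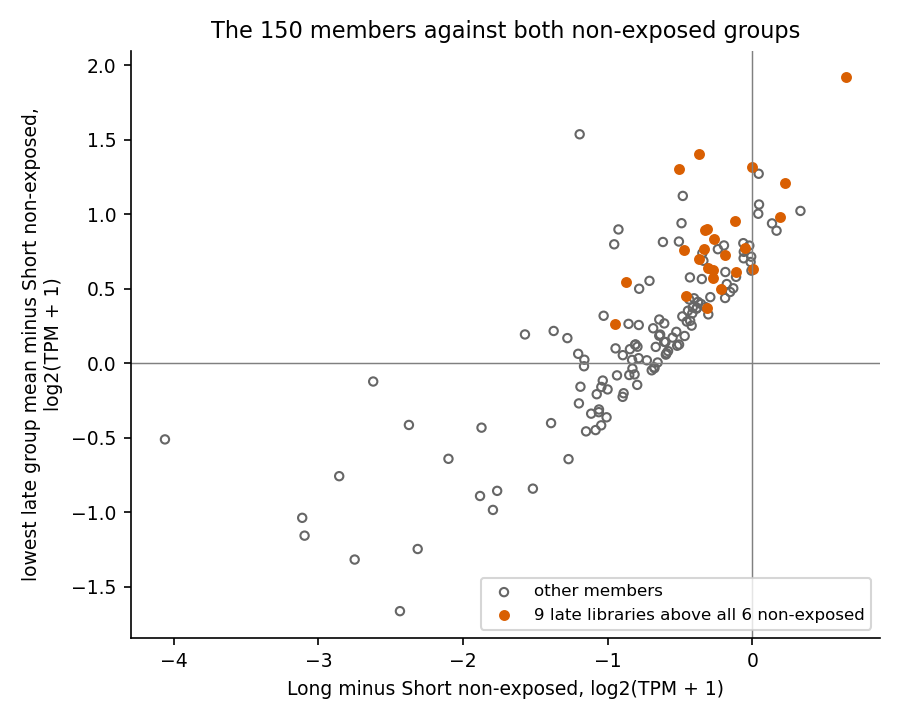
Each point is 1 of the 150 members, with the Long minus Short non-exposed difference on the horizontal axis and the lowest late group mean minus the Short non-exposed mean on the vertical axis, both in log2(TPM + 1). Points left of 0 (140 members) were lower in Long than in Short non-exposed animals, 109 points lie above the horizontal line, and filled points are the 25 members whose 9 late libraries were above all 6 non-exposed libraries.

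The lists of digestive type enzyme matches gave 5 members. The lists were drawn by protein name, and a digestive role of these transcripts was not tested. The alpha-amylase match g3301, a starch-cleaving enzyme, had 409, 289 and 342 TPM in Long non-exposed animals and 319.6, 409 and 398 in the Short ones. It had 636, 416 and 335 TPM at 12 h, 421, 504 and 411 at 18 h and 257, 318 and 313 at 24 h. It then had 794, 797 and 604 TPM at 36 h, 846, 866 and 840.1 at 48 h and 1102, 1022 and 855 at 72 h. Every late library was above every non-exposed library of both courses, and the lowest at 36 h was below the highest at 12 h. The log2 fold changes against the Long base were 1.08 ± 0.22, 1.31 ± 0.22 and 1.52 ± 0.22 (SE, n = 3), and against the Short base 0.96, 1.19 and 1.40.

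The kallikrein-8 match g8526, a trypsin-like serine protease, was among the 10 most abundant members. It had 1060.2, 575 and 748 TPM in Long non-exposed animals, 405, 480.3 and 620.2 at 24 h, 1343, 1376 and 1043 at 36 h, 1892, 1895 and 1670.1 at 48 h and 2609, 2622 and 2093 at 72 h. It was thus lowest at 24 h, overlapped the base at 36 h, and was above every non-exposed library at 48 and 72 h, with a log2 fold change of 1.66 ± 0.29 at 72 h. The protease match g12062 had 176, 126 and 177 TPM in Long non-exposed animals and 374 to 459.9 TPM at 36 h, 263 to 459 at 48 h and 329 to 419 at 72 h, all above the 6 non-exposed libraries. The acrosin match g2161, another trypsin-like protease, had 8.9, 28.0 and 16.4 TPM in Long non-exposed animals and 60.7, 129 and 79.2 at 36 h. Its late libraries did not overlap the non-exposed ones either, but its levels were low and its standard error at 72 h was 0.88. The match to an inactive pancreatic lipase-related protein, g12682, had 225, 111 and 142 TPM in Long non-exposed animals and 333, 364 and 296 at 72 h, and overlapped the base at 36 h.

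The list of 20 transcripts matched to serine proteases, carboxypeptidases and aminopeptidase N held 3 members. Of the 20, 5 were called higher at 36 h (background 0.811%), 7 at 48 h (background 1.4%) and 8 at 72 h (background 2.12%). Their median log2 fold change was 1.11 at 72 h, beside -0.14 over all transcripts tested. Of the 16 matched to enzymes of sugar and lipid digestion, 2 of them members, 5, 4 and 4 were called higher, with the same backgrounds. Their median was 0.99 at 72 h. Against the Short base the counts were 6, 4 and 4 for the proteases and 5, 4 and 3 for sugar and lipid digestion (background 0.885, 0.364 and 0.513%). The summed TPM of 7 gut marker transcripts (amylase, chymotrypsins, carboxypeptidase B and lipase), of which amylase is 1, was 1887 to 2640 in Long non-exposed libraries and 5413 to 6428 in the late ones. Between these times, at 12 to 24 h, it was 1730 to 5006 with a median of 3194, and in the Short course it was 2642 to 3030 in non-exposed libraries, 3796 to 5057 at 1 to 3 h and 3630 to 4536 at 6 and 9 h, so these markers were also higher before 36 h and in the Short course. The 7 muscle marker transcripts, none of them a member, summed to 571 to 960 TPM in Long non-exposed libraries, 221 to 1356 at 12 to 24 h and 1436 to 2375 in the late ones. The vitellogenin-6 match, a yolk protein, ranged from 1996 to 2781 TPM in Long non-exposed libraries and from 648 to 7920 TPM in the late ones. None of these markers was at 0 in all libraries of a group. The markers were taken by name from the study's tables, which mostly hold transcripts found higher after exposure in these libraries. The direction of their change is therefore not independent evidence. Their part in the members' differences was not tested.

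**Figure D3:**
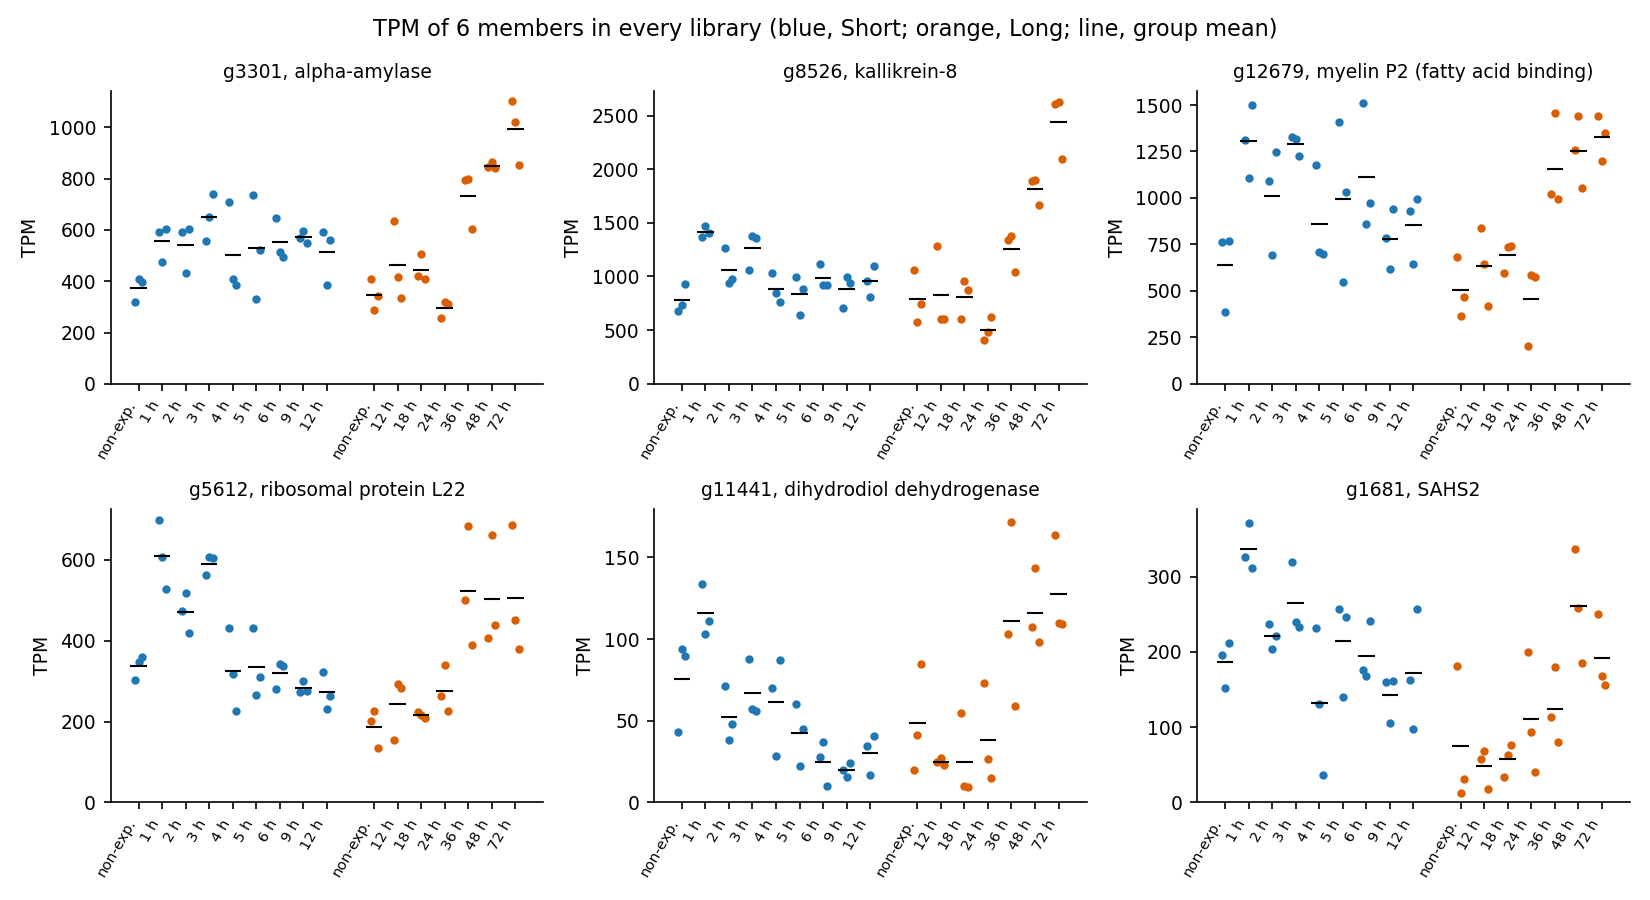
TPM of 6 members in every library (points, 3 per group; line, group mean), from a vertical axis that starts at 0 in each panel. Amylase (g3301) and kallikrein-8 (g8526) are highest at 72 h (855 to 1102 and 2093 to 2622 TPM), whereas ribosomal protein L22 (g5612), the dihydrodiol dehydrogenase match (g11441) and SAHS2 (g1681) reach late levels that the Short libraries at 1 h also held.

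Matches to lipid carriers gave 2 members. The myelin P2 match g12679, a fatty acid binding protein, had 682, 367 and 469 TPM in Long non-exposed animals, 1020.0, 1459.5 and 992 at 36 h, 1259, 1443 and 1055 at 48 h and 1441, 1199 and 1348 at 72 h. All late libraries were above the 6 non-exposed ones, and at 1 h of the Short course the values were as high, 1314, 1109.8 and 1500.3 TPM. The apolipoprotein D match g231, a lipocalin, had 347, 356 and 141 TPM in Long non-exposed animals, 549, 339 and 505 in Short ones, and 1001, 777 and 790.1 at 72 h. Its 36 h values, 481, 676 and 377 TPM, were all above the Long base and overlapped the Short one, and all 3 values of 72 h were higher than those of 36 h. Of the 8 transcripts in the list of lipid carriers, 1, 2 and 3 were called higher at 36, 48 and 72 h (background 0.811, 1.4 and 2.12%).

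The 2 SAHS members stood on a low base. g1681 (SAHS2) had 182, 12.8 and 31.2 TPM in Long non-exposed animals against 196, 152 and 211 in Short ones. Its late values were 114, 179 and 80.8 TPM at 36 h, 337, 259 and 186 at 48 h and 251, 167 and 156 at 72 h, so that 2 of the 3 libraries of 36 h lay below the Short non-exposed range and 2 of those of 48 h above it. Of the 3 libraries of the Long base, 1 was within the late range. The log2 fold change at 72 h was 2.12 ± 0.75. g1122 (SAHS1) had 131, 125 and 201 TPM in the Long base, 319.9, 388 and 378 in the Short one and 394, 163 and 190.4 at 72 h, so that 2 of the 3 libraries of 72 h were below every Short non-exposed library. Its log2 fold change at 72 h was 0.63 ± 0.48, and neither SAHS member passed the criterion at a late time. The study's tables gave 9 CAHS and SAHS matches, heat soluble proteins that are abundant in tardigrades. Of these, 1, 1 and 5 were called higher at 36, 48 and 72 h (background 0.811, 1.4 and 2.12%). Transcripts of these families that those tables do not name were not counted.

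Matches to ribosomal proteins were the largest named group, with 8 members of the 19 cytosolic ribosomal protein matches in the study's tables. Those tables mostly hold transcripts found higher after exposure, so the 19 do not stand for all ribosomal proteins. The match to L22, g5612, a protein of the large subunit, had 202, 226 and 134 TPM in Long non-exposed animals and 303, 348 and 359 in Short ones. It had 499.8, 684 and 389 TPM at 36 h, 406, 662 and 439 at 48 h and 686, 452 and 379 at 72 h, above all 6 non-exposed libraries. In the Short course it had 698, 607 and 527 TPM at 1 h and 274, 300.3 and 276 at 9 h. The early Short values were as high as the late Long ones, and the 9 h values had returned to or below the non-exposed level. The match to L27a, g9516, had 848, 448 and 462 TPM in Long non-exposed animals and 900.1, 1685 and 1234 at 36 h, and peaked there. The match to L23a, g3245, also peaked at 36 h, with 878, 1165 and 1016 TPM against 599, 510.4 and 390.0 in the Long base. L3 (g10793) went from 118 to 154 TPM to 220.0 to 387 in the late libraries, but its Short non-exposed libraries held 239 to 253. The late libraries lay above all 6 non-exposed ones for L22 and L23a and above the Long base alone for L27a, L3, S5 (g3993) and L5 (g2592). For S23 (g10428) and L13 (g5513) they overlapped even the Long base. S5 held 718 to 1221 TPM in the late libraries, L5 296 to 736, S23 566 to 1166 and L13 343 to 713. Over the whole list, 5, 4 and 13 of the 19 were called higher at 36, 48 and 72 h (background 0.811, 1.4 and 2.12%). The medians were 1.04, 0.91 and 1.09 on the log2 scale, beside -0.01, -0.04 and -0.14 over all transcripts tested. The count at 72 h depended on the base and the fit. Against the Short base 1 of 19 was called (background 0.513%). The count was 2 in a fit of the groups compared alone (background 2.24%) and 3 after quantile normalization (background 2.86%).

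Matches to enzymes of xenobiotic metabolism gave 7 members. Of 28 matches to cytochrome P450, carbonyl reduction and conjugation enzymes, 4, 4 and 6 were called higher at 36, 48 and 72 h (background 0.811, 1.4 and 2.12%). The cytochrome P450 2J6 match g6167, a haem monooxygenase, had 52.2, 63.3 and 33.6 TPM in Long non-exposed animals, 92.9, 226 and 98.4 at 36 h and 176, 82.4 and 102 at 72 h, and its 9 late libraries were above the 6 non-exposed. The dihydrodiol dehydrogenase match g11441, which oxidises aromatic dihydrodiols, had 19.5, 41.5 and 84.7 TPM in Long non-exposed animals and 164, 109.6 and 109 at 72 h. Its base overlapped the 36 h libraries. The DHR11 match g4032, a short-chain dehydrogenase, had 117, 88.0 and 79.5 TPM in Long non-exposed animals and 249.8, 178 and 211 at 72 h. At 24 h it had 256, 60.2 and 48.0 TPM, of which the first, replicate 1, was as high as the late values. Sulfotransferases, which add sulfate to small molecules, gave 3 of the 7: g6808 had 19.2, 2.07 and 25.0 TPM in Long non-exposed animals and 32.2 to 64.4 at 72 h. For g5716 these were 6.0 to 14.9 and 26.3 to 73.6 TPM, and for g12452 6.54 to 59.2 and 52.3 to 82.5. Their log2 fold changes at 72 h were 2.14 ± 1.02, 2.17 ± 0.92 and 1.92 ± 0.96, so the standard errors were near 1 and no call was made. The match to a plant flavin monooxygenase, g7491, held 2.35 to 21.0 TPM in the base and 24.4 to 44.0 at 72 h.

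The glutathione S-transferase match g10962, which couples glutathione to electrophiles, had 199, 95.5 and 101 TPM in Long non-exposed animals, 219.8, 189.7 and 251 in Short ones and 371, 387 and 263 at 72 h. At 72 h it was above the Short base in all 3 libraries, by 0.62 on the log2 scale. The glutathionyl-hydroquinone reductase match g8785 had 12.1, 28.6 and 54.8 TPM in Long non-exposed animals and 82.6, 63.0 and 68.3 at 72 h. They are 2 of 24 matches in the list of glutathione, thioredoxin and superoxide enzymes. Of the 24, 3, 5 and 5 were called higher at 36, 48 and 72 h (background 0.811, 1.4 and 2.12%).

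Smaller lists had few members. Sterol synthesis had 2 of 5, the squalene monooxygenase match g13136 and the acetyl-CoA acetyltransferase match g3247. The former had 59.7, 49.5 and 27.4 TPM in Long non-exposed animals and 101, 81.0 and 104 at 36 h. The latter was at 55.5 to 105 TPM in the Long base, 128 to 179 in the Short base and 124 to 194 in the late libraries, so it did not separate from the Short non-exposed animals. The list of secretory pathway matches, which includes collagen hydroxylation, gave 2 members. g8404, matched to a prolyl hydroxylase subunit, had 61.6, 39.0 and 105 TPM in the base and 215, 131 and 89.5 at 72 h. g10831, matched to cartilage-associated protein, had 25.8, 15.6 and 16.4 TPM in the base and 70.0, 74.3 and 32.8 at 72 h. In these lists limma called 0 of 5 and 0 of 8 transcripts at a late time (background 0.811, 1.4 and 2.12% at 36, 48 and 72 h). At 72 h, 3 of 5 and 6 of 8 were higher at an unadjusted p under 0.05 (limma), where 7.98% of all transcripts were. Both lists come from tables that mostly hold transcripts found higher in these libraries, so these counts are a description. The ATP synthase subunit O match g676 had 142, 214 and 172 TPM in the Long base, 293, 386 and 379.8 in the Short base and 434, 403 and 361 at 72 h, and was 1 of 5 members called lower in Long than in Short non-exposed animals (background 0.968%). In the mitochondrial list of 11 transcripts, 1, 2 and 2 were called higher at 36, 48 and 72 h (background 0.811, 1.4 and 2.12%). The tolloid-like astacin match g9363, a secreted metalloprotease, held 321 to 371 TPM in the base, 491 to 758 in the late libraries and 356 to 582 in the Short non-exposed ones. Of the 8 astacins, 1, 1 and 3 were called higher, with the same backgrounds.

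Among members outside the lists, 18 stood above both bases in every late library, and 3 of them, picked after their values were seen, are given here. The neuroligin-4 match g222, a carboxylesterase-like adhesion protein, had 146, 187 and 199.9 TPM in Long and 94.3, 123 and 121 in Short non-exposed animals. It had 443, 758 and 527 TPM at 36 h, 275, 545 and 528 at 48 h and 595, 436 and 300.3 at 72 h. It was 1 of the 10 members that were not lower in the Long base, with a Long minus Short non-exposed difference of 0.65. The aquaporin-5 match g8550, a water channel, had 99.9, 96.4 and 111 TPM in Long non-exposed animals, 201, 170.2 and 204 at 36 h and 289.8, 208 and 283 at 72 h. The VPS51 match g5447 had 113, 127 and 139 TPM in Long non-exposed animals and 300.5, 385 and 323 at 36 h. The fumarylacetoacetase match g10022, the last enzyme of tyrosine breakdown, had the second highest minimum D, but on low levels: 7.01, 15.7 and 0 TPM in Long non-exposed animals, 17.3, 2.31 and 25.4 in Short ones and 37.8, 58.9 and 26.4 at 36 h.

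Several members matched to proteins with roles in protein synthesis and folding were also outside the lists and were picked after their values were seen. The fibrillarin match g8379, which methylates ribosomal RNA, had 164, 167 and 129 TPM in Long non-exposed animals, 275, 163 and 326 in Short ones and 336, 211 and 193 at 72 h. The elongation factor 1-delta match g12592 had 469, 649 and 437, 723, 614 and 822 and 1186, 1060.3 and 964 TPM in these groups. The match to a mosquito heat shock protein of the HSP70 family, g13851, a chaperone, had 98.2, 58.3 and 97.1 TPM in Long non-exposed animals, 106, 124 and 89.2 in Short ones and 265, 219.7 and 119.7 at 72 h. For elongation factor 1-delta every library of 48 and 72 h was above all non-exposed ones, and for fibrillarin the late and the Short non-exposed libraries overlapped. The match to a facilitated glucose transporter, g6037, had 42.7, 15.6 and 40.1 TPM in Long non-exposed animals and 46.8, 84.4 and 36.3 at 72 h. The adenylate kinase match g9815, which keeps adenine nucleotides in balance, had 18.5, 27.7 and 74.1 and 80.5, 119 and 56.1 TPM. Of the 2 unnamed transcripts called at all late times with levels over 100 TPM, g671 had 184, 254 and 208 TPM in Long non-exposed animals, 403, 414 and 423 in Short ones and 424 to 958 in the late libraries, and g5362 had 399.7, 342 and 284, 374, 418 and 535 and 557 to 955. Both were above all non-exposed libraries at 36 to 72 h.

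Of the 15 members with the highest minimum D, 4 had a name: fumarylacetoacetase, acrosin, a sulfotransferase and SAHS2. g6138, which had the highest, was at 0, 0 and 2.01 TPM in Long non-exposed animals, 0, 0 and 0.671 at 12 h, 23.5, 10.5 and 16.1 at 36 h and 50.0, 22.2 and 29.3 at 48 h. In the Short non-exposed animals it was at 16.8, 61.9 and 11.5 TPM, as high as in the late libraries, and no fold is given because the base was listed at 0 in 2 libraries. g4183, g4557, g2863, g1123, g5731, g13279 and g5099 were likewise listed at 0 in 1 or 2 of the 3 Long non-exposed libraries. In 18 members at least 1 Long non-exposed library was listed at 0, in 9 at least 2 were, and in 1 all 3 were, against 2 members with a 0 in any late library. The others among the 15 highest were g9884, g12256 and g2985, with 0.417 to 21.5, 14.8 to 40.8 and 3.14 to 7.66 TPM in the base and 14.1 to 57.4, 55.9 to 137 and 13.2 to 38.0 in the late libraries.

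The most abundant members were also without a name, apart from kallikrein-8. g8780 had 1744, 2137 and 1790.3 TPM in Long non-exposed animals, 1118, 845 and 616 at 18 h, 3914, 6295 and 4817 at 36 h and 4599, 3153 and 2265 at 72 h, so it was lowest at 18 h and highest at 36 h. g2930 had 1098, 1359.8 and 1139 TPM in Long non-exposed animals, 2015, 2857 and 2119 at 36 h, 3009.7, 3929.5 and 2205 at 48 h and 3894, 2634 and 2932 at 72 h. g2406 had 1014, 728 and 801 TPM in the base and 3479.9, 3189.6 and 1936 at 72 h. Both were above all 6 non-exposed libraries at all late times. g7188, g10888, g3884 and g962 held 2096 to 3997, 1190.0 to 3188, 3289 to 4722 and 1954 to 3363 TPM in the late libraries. By gene number, 37 members had another member within 10 numbers, and 6 pairs had consecutive numbers. The densest stretch held 5 members within 20 numbers, g283, g289, g290, g297 and g300. There g300 had 2804, 2025 and 2101 TPM in Long non-exposed animals and 4508, 4651 and 4084 at 48 h. g297 had 2438, 1361 and 1947 TPM in the base and 3851, 3834 and 3406 at 48 h. g289 went from 247 to 366 to 474 to 895 TPM in the late libraries and g290 from 297 to 433 to 636 to 1003. The 9 late libraries of these 4 lay above all non-exposed ones, and those of g283 did not.

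Within the late window most members were level. Of the 150, 112 differed by at most 0.5 on the log2 scale between 36 and 72 h, 29 were higher at 72 h by more, and 9 were lower by more. The highest of the 3 means fell at 36 h in 43 members, at 48 h in 45 and at 72 h in 62. Kallikrein-8, apolipoprotein D, calbindin-32 (g12851) and g12451 were among those higher at 72 h, with differences of 0.96, 0.77, 0.69 and 0.98. Acrosin, g8780 and the nascent polypeptide-associated complex match g61 were among those lower, with -0.56, -0.62 and -0.59. g61 had 443, 505 and 485 TPM at 36 h and 369.9, 287 and 297 at 72 h, but also 518, 318 and 427 at 24 h, so its level was already above the non-exposed range at 24 h.

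The Short libraries of 1 to 9 h entered the rule only through the mean level over all 48 libraries. At 1 h after exposure their median difference from the Short non-exposed libraries was 0.30, where the median over all transcripts tested was -0.28. It was positive in 108 of 150 members and in 30.8% of the transcripts the rule could choose from. D was over 0.5 at 1 h in 47 members (31.3%), against 11.6% of those transcripts. The Short non-exposed libraries also served the rule at 12 h, so these values are a description. With each library scaled to its own median, the medians were 0.60 for the members and 0.02 for all transcripts. All 3 libraries of 1 h were above the 3 Short non-exposed ones in 54 members (background 5.54%), and 1 member, g2406, was called higher by limma (background 0.223%). That call was lost without Short non-exposed replicate 1 or 2, without any 1 of the 3 libraries of 1 h, after quantile normalization and in a fit of the groups compared alone. Without Short non-exposed replicate 3, 5 members were called, and with median scaling 11 were, when 0.447 and 0.869% of all transcripts were. g2406 had 831, 1159 and 1228 TPM in Short non-exposed animals and 2249.7, 2125 and 2060.1 at 1 h. The mean at 1 h was above the lowest late mean in 78 members and above all 3 late means in 33. The description of the set as higher at 36 to 72 h only therefore does not hold at 1 h after exposure. Within the Long course it holds for the set as a whole, but not for every member. The rule put no bound on Long 24 h, where g5226 had a D of 2.28 against 1.07 at Long 36 h. At 2 h the members' median was -0.10, the same as over all transcripts tested, and at 3 h it was 0.08 beside -0.15.

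The libraries of 1 to 3 h and of 6 and 9 h entered the rule only through the mean level over all 48 libraries, and the level was lower at 6 and 9 h. The contrast of the mean of 6 and 9 h against the mean of 1, 2 and 3 h had a median of -0.42 over the members and 0.22 over all transcripts tested, and was negative in 125 of the 150 members, against 29.1% of the transcripts the rule could choose from. With median scaling these medians were -0.66 and -0.02. By limma 7 members fell (background 0.513%), and 0 rose (background 2.61%). At an unadjusted p under 0.05, 67 members were lower and 2 higher, where 5.33% of all transcripts were lower and 21% higher. The 9 libraries of 1 to 3 h were all above the 6 of 6 and 9 h in 14 members (background 0.529%). The rule also bounded D at 12 h of the Short course, which kept out transcripts that had risen by then. That bound can favour a lower level at 6 and 9 h, and the 29.1% and the backgrounds include transcripts that did not meet it. The values and p-values of this contrast are therefore a description.

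The 7 members that fell were led by g5462, without a name, at -2.20 ± 0.47 (SE, adjusted p = 0.00437, limma). The dihydrodiol dehydrogenase match g11441 fell by 1.77 ± 0.31 (adjusted p = 0.00103, limma), from 134, 103 and 111 TPM at 1 h to 15.4 to 23.8 at 9 h, with no overlap between these 2 groups. g9884, g12288 and g9949 changed by -1.65, -1.49 and -1.41 (adjusted p = 0.00905, 0.00486 and 0.0222, limma). SAHS1, g1122, fell by 1.01 ± 0.17 (adjusted p = 0.000844, limma), from 447, 362 and 453 TPM at 1 h to 145, 132 and 166 at 9 h, and g5380 changed by -1.02. Among the 19 ribosomal protein matches, 17 had lower means at 6 and 9 h, with a median of -0.42, and by limma 0 met both criteria, with 14 lower at an unadjusted p under 0.05. L22 (g5612) changed by -0.88 ± 0.13 (adjusted p = 0.000246, limma), short of the fold criterion of 1. For amylase (g3301) the difference was -0.04 ± 0.17 (adjusted p = 0.911, limma).

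**Figure D4:**
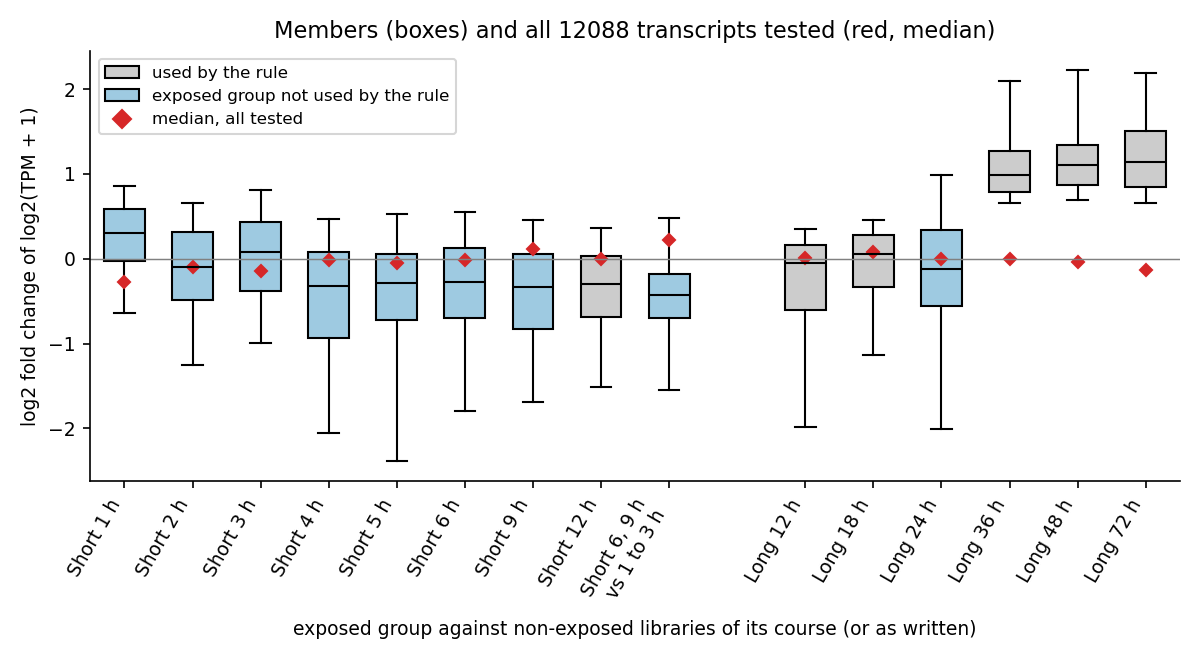
Log2 fold change of the 150 members in each exposed group against non-exposed animals of that course, and in Short 6 and 9 h against 1 to 3 h (box, quartiles; line, median; whiskers, 5th to 95th percentile), with the median of all transcripts tested (red). Grey boxes are groups that the rule used. The blue box at Short 1 h lies at 0.30, above the red mark at -0.28, and at Short 6 and 9 h against 1 to 3 h the order is turned, -0.42 below 0.22.

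Against the Short non-exposed libraries, which the rule had used at 12 h, the members' medians at 4, 5, 6, 9 and 12 h were -0.32, -0.28, -0.27, -0.33 and -0.30, beside -0.01, -0.05, -0.02, 0.12 and 0.00 over all transcripts tested. The summed TPM was 46466 ± 3616 in Short non-exposed animals, 65810 ± 2979 at 1 h, 52163 ± 1336 at 2 h, 59398 ± 2873 at 3 h and 41282 ± 279 at 9 h (SD, n = 3). The values at 1 h were thus within the range of the late Long libraries, 59651 to 84754.

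The 24 h libraries of the Long course entered the rule only through the mean level over all 48 libraries, but their non-exposed base served it directly. The median was -0.12, and by limma 0 were called higher (background 0.149%) and 0 lower (background 0.0414%), with 7 higher and 6 lower at an unadjusted p under 0.05, where 6.43% of all transcripts were higher and 5.82% lower, so these counts are no more than the background. This group rests on uneven libraries. Replicate 1 listed 792 of the 7238 abundant transcripts and 27 members at 0, against 2 and 5 members in replicates 2 and 3. Without it the members' median was 0.24, beside 0.14 over all transcripts tested. At 12 h, the time sampled in both courses, the effect in Long minus that in Short was over 1 on the log2 scale in either direction in 19 members. The rule had bounded D at 12 h in both courses from these same libraries, so no test of this difference is given.

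The transcript g2856, from the family of the peroxidase g12777 named in the study, was a member too. The study states that its gene model was predicted wrongly, and the effect of this on its TPM was not tested. It had 184, 148 and 111 TPM in Long non-exposed animals, 287, 281 and 302 in Short ones, 249, 352 and 193 at 36 h and 373, 321 and 238 at 72 h, and its late libraries overlapped the Short non-exposed range.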

How the data were processed

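RNA was sequenced from 48 libraries of whole animals. TPM values of 14532 transcripts, one column a library, were deposited by the authors, who had used kallisto. TPM is relative to its library and keeps no depth, so precision comes from the spread between libraries, and a few abundant transcripts that rise lower all others. log2(TPM + 1) was fitted with limma 3.58.1 (R 4.3.3; trend) per time course on the 12088 transcripts that averaged 1 TPM or more, with Benjamini-Hochberg adjustment within each comparison. Calls were made at an adjusted p below 0.05 for changes of more than 1 in log2. limma takes the place of the authors' DESeq2 on counts, which are not used here. The fits were tested on simulated data. Python 3.11.15 was used for the rest.

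The members and the gene lists were chosen with earlier results of these data known. Genes named in the text are the 15 members with the highest minimum D, the 10 most abundant at the late times, members of the gene lists, the members called in the Short contrast and those at the limit of the set. Others were picked after their values were seen, also where this is not said beside them, as for calbindin-32, g12451, g5226, g283, g289, g290 and g2856. The lists are 11 groups of Swiss-Prot matches in the study's tables. They leave out transcripts of the same kind that those tables do not name. Replicates were separate lots of animals according to the methods, and p-values measure the spread between such lots. Gene sequences were not used here. Alternatives were pseudocounts of 0.1 and 5, other filters, median scaling, quantile normalization, a replicate block, fits of only the groups compared, no fold criterion, robust eBayes and each library left out.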

Additional observations from a re-analysis of the deposited data

How the results depend on the processing

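The membership moved most with the base. With the Short non-exposed libraries as the base 53 of the 150 members were chosen again, and with 1 library left out 85 to 147, the lowest without Long non-exposed replicate 1. Pseudocounts, filters, added isoforms and scalings kept 103 to 147.

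A fit of only the groups compared called 4, 12 and 19 members higher at Long 36, 48 and 72 h in place of 13, 27 and 34 (1.05, 1.83 and 2.24% of all transcripts), and the Short base, chosen after seeing the data, called 6, 7 and 11. With 1 library left out, the calls at 36 h were 0 to 10, with backgrounds of 0.174 and 0.852% at these ends. The 0 came without Long 36 h replicate 2. At 48 h they were 9 to 30 (background 0.538 and 1.22%), the 9 without Long 48 h replicate 2. At 72 h they were 11 to 34 (background 0.711 and 1.96%), the 11 without Long 72 h replicate 1. At 24 h they were 0 to 1 higher, where 9 to 61 of all 12088 transcripts were. The Short base at 24 h gave 1 higher and 17 lower, beside 211 and 279 of all transcripts. For Short 6 and 9 h against 1 to 3 h, the 7 lower calls became 17 with median scaling, 42 without the fold criterion and 11 with only the groups compared, where the lower calls over all transcripts went from 0.513% to 1.34, 2.32 and 0.943%, and stayed at 5 to 8 with 1 library left out. The cause was not tested.

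The median of the members at Long 24 h was -0.12, lay between -0.20 and 0.24 with 1 library left out and turned positive, 0.24, without Long 24 h replicate 1, and g6138 turned to -3.74 at Long 24 h and -0.51 at Long 36 h with the Short base. Same-numbered libraries did not deviate together (mean correlation 0.00088 in Short and -0.0112 in Long), so no pairing by number was seen. These correlations cannot show that libraries of different times came from separate lots. A replicate block gave 13, 26 and 32 members higher at 36, 48 and 72 h (background 0.72, 1.17 and 1.94%). It gave 7 lower in the Short contrast (background 0.505%).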
